A study of Arabidopsis thaliana with 6 samples.

Results

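The genes described here are the 50 nuclear auxin signalling genes of Arabidopsis thaliana: 29 Aux/IAA repressors, 15 auxin response factors (ARF) and the 6 TIR1/AFB receptors. They were chosen by name, by matching their AGI locus codes to the gene models of the count tables after dropping the model suffix, and all 50 were found among the 33602 models. Of these, 48 had enough read pairs to be tested: 27 Aux/IAA, 15 ARF and 6 TIR1/AFB genes.

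The study sequenced whole seedlings that carry 35S::CUC2-GR, in which the strong viral 35S promoter drives the boundary transcription factor CUC2 joined to the steroid-binding part of the glucocorticoid receptor. The steroid dexamethasone (Dex) binds there and releases the fusion from the cytoplasm into the nucleus. The 3 withDex libraries came from plantlets in 10 mL of liquid medium that had received 10 µL of Dex 6 h before freezing, and the 3 noDex libraries came from untreated seedlings of the same genotype and the same stage, which the labels give as boyes 1.02. Both groups carry the transgene, no line without it and no mock treatment is named in the labels, and the concentration of the Dex is not given in the sources used here, so effects of Dex itself and of the activated fusion cannot be told apart. Values are from whole seedlings, in which fewer cells of a type and less RNA per cell cannot be told apart.

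Auxin acts in the nucleus by bringing TIR1/AFB F-box proteins, the substrate-binding subunits of an SCF ubiquitin ligase, together with Aux/IAA proteins, which are then ubiquitinated and degraded. Aux/IAA proteins hold ARF transcription factors in check, partly by recruiting TOPLESS corepressors, so their loss frees the ARFs at auxin response genes. Many Aux/IAA genes are themselves auxin-induced, which closes a feedback loop, while most ARF genes are not. In leaves and shoot apices this pathway and the CUC genes both take part in placing organ boundaries and leaf margin teeth.

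The libraries held 26161582 to 29481253 counted pairs, which was 95.2% to 95.6% of the pairs read. Along the first principal component (53.8% of the variance) withDex and noDex libraries stood apart, and along the second (21.6%) withDex replicate 1 stood apart from replicates 2 and 3. Summed photosynthetic markers (6 genes, none at 0) ranged from 7275 to 11461 CPM (pairs scaled to library size) in withDex and from 13075 to 14872 CPM in noDex, with withDex replicate 1 lowest. Summed root markers (8 genes, none at 0) ranged from 324 to 338 CPM in withDex and from 348 to 388 CPM in noDex. Of these, 2 photosynthetic markers (CAB1, CAB2) and 2 root markers (SHR, EXPA7) were called lower. That is 33.3% and 25% of the lists, against 14.4% of all genes tested. CAB1 alone averaged 4402 CPM in withDex and 7211 CPM in noDex. All 6 photosynthetic markers had negative log2 fold changes, but RBCS1A and RBCS1B were at only -0.01 each. Of the root markers, 6 had negative values and 2 positive ones, PLT2 (0.45) and PHT1;1 (0.02). Summed flower and seed markers (6 genes) were 3.05 to 43.0 CPM in withDex and 1.80 to 2.98 CPM in noDex, and the highest value came from withDex replicate 3, where the seed storage gene CRA1 had 37.6 CPM. The part of these differences in the results below was not tested.

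Across the 3 families, 13 of the 48 tested members differed between withDex and noDex at an adjusted p under 0.05 (edgeR's quasi-likelihood test, Benjamini-Hochberg adjustment over all 21344 genes tested), 4 of them higher and 9 lower in withDex. That is 27.1% of the members, against 14.4% of all genes, of which 5.99% were called higher and 8.4% lower. The calls were uneven between the families. In the Aux/IAA family 10 of 27 tested genes were called (3 higher, 7 lower), in the ARF family 2 of 15 (1 higher, 1 lower) and in the TIR1/AFB family 1 of 6 (lower). The median log2 fold change of withDex over noDex was -0.15 in the Aux/IAA family, -0.05 in the ARF family and 0.02 in the TIR1/AFB family, and 0.01 over all genes tested. The median size of the change, whatever its direction, was 0.31 in the Aux/IAA family, 0.08 in the ARF family and 0.06 in the TIR1/AFB family, against 0.14 over all genes tested. Without withDex replicate 1, 11 Aux/IAA and 2 ARF genes were called lower and AFB3 was called higher, while 23.6% of all genes were called (10.9% higher, 12.7% lower). Tested against a minimum fold change of 1.5, no member was called, and 0.942% of all genes were. These counts and medians describe the families and carry no test of the difference between them. The series names its libraries biological replicates without saying what separates them, so p-values measure the spread between these libraries.

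**Figure D1:**
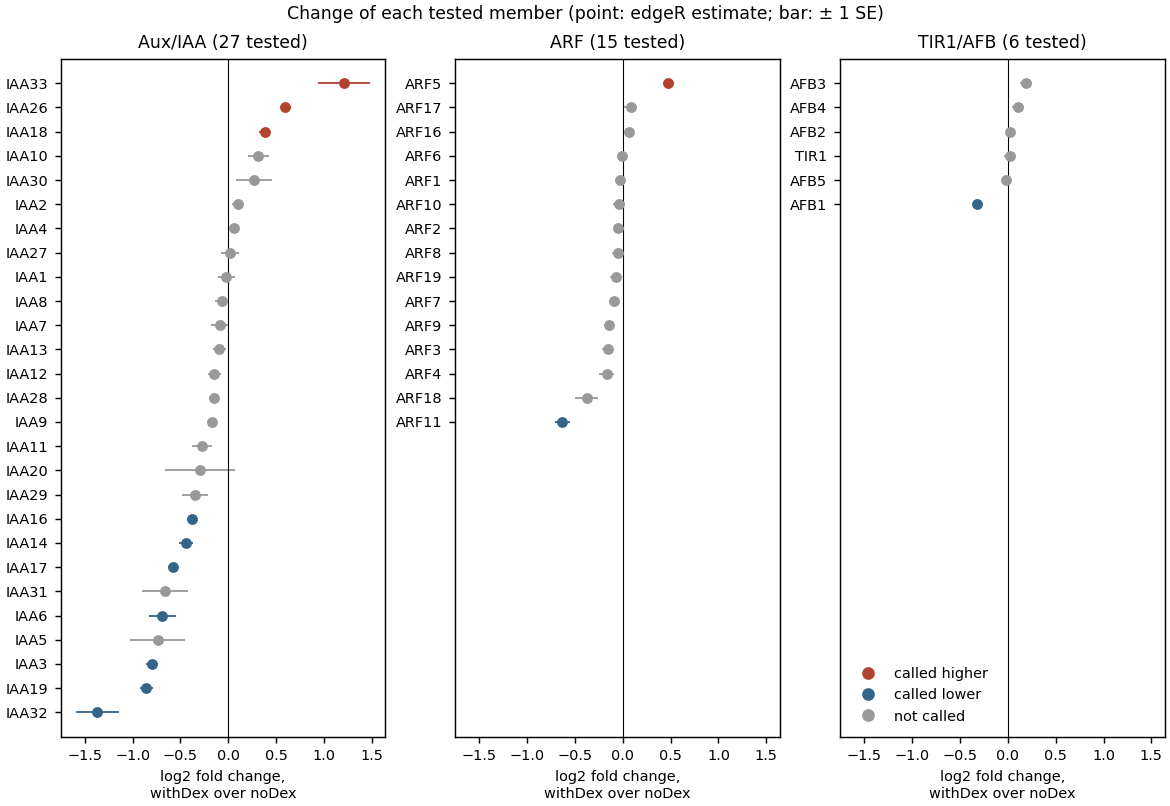
Log2 fold change of withDex over noDex (horizontal axis) for each tested member of the 3 families, 1 row per gene, with bars of 1 standard error (SE) from edgeR. The Aux/IAA genes spread from -1.37 for IAA32 to 1.21 for IAA33, while 13 of 15 ARF genes and 5 of 6 TIR1/AFB genes were not called.

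The receptors come first in the pathway. Gene positions are those of the TAIR10.1 annotation, and all called members are protein-coding genes. AFB1 (AT4G03190, chr4:1404887-1407402, minus strand), an auxin receptor known for rapid growth responses of the root, had 77.3, 73.8 and 78.6 CPM in withDex replicates 1 to 3, against 91.7, 97.6 and 96.8 CPM in noDex replicates 1 to 3. The groups did not overlap, and AFB1 fell by 0.32 on the log2 scale (SE 0.05, adjusted p = 0.00764, edgeR). TIR1, the first auxin receptor identified, had 93.8, 101 and 104 CPM in withDex and 94.3, 98.7 and 101 CPM in noDex. The 2 groups overlapped for TIR1, with a log2 fold change of 0.02 (SE 0.06, adjusted p = 0.842, edgeR). AFB5, a receptor that also perceives the synthetic auxin picloram, had 93.1, 91.7 and 92.1 CPM in withDex and 96.9, 93.8 and 90.6 CPM in noDex, again overlapping, with a log2 fold change of -0.02 (SE 0.05).

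AFB3, a receptor with a known role in root responses to nitrate, had 51.4, 58.4 and 55.2 CPM in withDex and 47.9, 49.95 and 47.1 CPM in noDex. The groups did not overlap, yet its adjusted p was 0.0814 at a log2 fold change of 0.19 (SE 0.06, edgeR). Without withDex replicate 1 it was called higher (adjusted p = 0.0124), as it was with a correction for model length and GC content (adjusted p = 0.0473). AFB2 also showed no overlap, at 75.6 ± 0.0460 CPM in withDex and 74.2 ± 0.341 CPM in noDex (SD, n = 3 each), a log2 difference of 0.03. AFB4, the least abundant receptor, had 20.5 ± 0.744 CPM in withDex and 19.1 ± 0.817 CPM in noDex (SD, n = 3 each).

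Some of the receptor mRNAs are known targets of the microRNA miR393. The matching stretch is shown because AFB1, the only called receptor, has one resembling those of the uncalled TIR1, AFB2 and AFB3. Whether the stretch in AFB1 works as a target site was not tested. The mature miR393a and the best-matching stretch of each transcript, read from the RefSeq annotation and genome of TAIR10.1, are given 5′ to 3′. Capitals mark the seed (bases 2 to 8) in the microRNA and the bases complementary to it in the transcripts, whose sites all lie in the coding sequence.
miR393a: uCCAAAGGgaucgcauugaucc
TIR1: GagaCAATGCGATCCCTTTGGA
AFB1: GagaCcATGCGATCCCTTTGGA
AFB2: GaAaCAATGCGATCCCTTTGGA
AFB3: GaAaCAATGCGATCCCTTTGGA
The sites held 3 mismatches in TIR1, 4 in AFB1, and 2 each in AFB2 and AFB3, while the best stretches of AFB4 and AFB5 held 7 and 8 mismatches. Of the 4 genes with such a stretch, AFB1 alone was called. Per length, TIR1, AFB1 and AFB5 were the most abundant receptors, at 42.5 ± 2.23, 37.1 ± 1.21 and 37.7 ± 0.2997 RPKM in withDex, and 41.8 ± 1.44, 46.3 ± 1.55 and 38.3 ± 1.29 RPKM in noDex (SD, n = 3 each). RPKM is the level per length, here the CPM of read pairs divided by the deposited model length in kilobases.

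Among the repressors, 7 Aux/IAA genes fell and 3 rose in withDex. IAA19 (MSG2, AT3G15540, chr3:5264001-5265695, plus strand), a repressor known for its part in hypocotyl tropism and elongation, had 23.0, 19.9 and 21.8 CPM in withDex and 37.0, 39.9 and 40.3 CPM in noDex. Every withDex library lay below every noDex library, and IAA19 fell by 0.86 on the log2 scale (SE 0.07, adjusted p = 0.000440, edgeR). IAA3 (SHY2, AT1G04240, chr1:1128149-1129689, minus strand), which restrains root meristem growth and sits at the meeting point of auxin and cytokinin signalling, had 42.3, 37.3 and 42.1 CPM in withDex and 68.1, 72.4 and 71.5 CPM in noDex. The groups stood clear of each other, and IAA3 fell by 0.80 (SE 0.06, adjusted p = 0.000394, edgeR). In the reference annotation IAA3 overlaps AT1G04230 on the opposite strand, and 36.3% of its 50-base stretches are also in that gene's transcript. As the libraries were not stranded, reads from the shared stretch cannot be assigned by strand, and AT1G04230 itself had a log2 fold change of 0.16 (adjusted p = 0.267).

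IAA17 (AXR3, AT1G04250, chr1:1136078-1138663, plus strand), whose stabilised form blocks many auxin responses, had 75.7, 73.0 and 72.5 CPM in withDex, against 108, 108 and 113 CPM in noDex. The gap was wider than the spread within either group, and IAA17 fell by 0.58 (SE 0.05, adjusted p = 0.000560, edgeR). IAA16 (AT3G04730, chr3:1288155-1290891, minus strand), a close relative of IAA7, IAA14 and IAA17 and the most abundant of the called members, had 191, 188 and 196 CPM in withDex and 254, 246 and 249.7 CPM in noDex. It fell by 0.38 (SE 0.05, adjusted p = 0.00309, edgeR), with no overlap. IAA14 (SLR, AT4G14550, chr4:8347822-8350263, minus strand), which blocks lateral root initiation when stabilised, had 17.4, 15.6 and 15.6 CPM in withDex and 21.4, 21.5 and 23.2 CPM in noDex, and fell by 0.44 (SE 0.07, adjusted p = 0.00644, edgeR).

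The other called repressors that fell were of low abundance. IAA6 (SHY1, AT1G52830, chr1:19672476-19673652, minus strand), a relative of IAA19, had 2.27, 2.75 and 3.06 CPM in withDex and 4.48, 4.31 and 4.25 CPM in noDex, a fall of 0.69 (SE 0.14, adjusted p = 0.0159, edgeR). The groups did not overlap, but the call was lost when any one noDex library was left out (adjusted p = 0.0601, 0.0625 and 0.0545 without noDex replicates 1, 2 and 3). IAA32 (AT2G01200, chr2:117969-120095, plus strand), a non-canonical member known from work on the apical hook, had 0.644, 0.535 and 0.392 CPM in withDex and 1.37, 1.34 and 1.37 CPM in noDex, from 19, 14 and 11 pairs in withDex and 40, 38 and 39 pairs in noDex. Its fall of 1.37 (SE 0.23, adjusted p = 0.00703, edgeR) was the largest among the tested members. IAA32 shares 49.3% of the 50-base stretches of its 1625-base reference transcript with AT2G01210. The counted model of IAA32 is 872 bases long, and the share within that model was not computed. AT2G01210 averaged 8.80 CPM in withDex and 8.64 CPM in noDex, above IAA32 in both groups. Its own log2 fold change was 0.03 (adjusted p = 0.895, edgeR). The part of reads from AT2G01210 in the counts of IAA32 was not tested.

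Of the repressors that rose, IAA26 (AT3G16500, chr3:5612203-5614803, minus strand), first described as a phytochrome-associated protein, had 75.8, 70.0 and 67.5 CPM in withDex and 47.7, 47.0 and 46.4 CPM in noDex. All withDex libraries exceeded all noDex libraries, and IAA26 rose by 0.60 on the log2 scale (SE 0.06, adjusted p = 0.000809, edgeR). IAA18 (AT1G51950, chr1:19305081-19307518, plus strand), its nearest relative in the family and a gene whose gain of function disturbs the embryonic axis, had 38.5, 40.0 and 38.1 CPM in withDex and 28.5, 31.4 and 29.7 CPM in noDex. It rose by 0.38 (SE 0.06, adjusted p = 0.00490, edgeR), without overlap. IAA33 (AT5G57420, chr5:23269914-23271092, plus strand), a non-canonical member studied in roots, had 1.08, 0.726 and 0.855 CPM in withDex and 0.377, 0.460 and 0.316 CPM in noDex, from 32, 19 and 24 pairs in withDex and 11, 13 and 9 pairs in noDex. The groups did not overlap, and its log2 fold change was 1.21 (SE 0.28, adjusted p = 0.0236, edgeR). The call was lost without withDex replicate 3 (adjusted p = 0.0538) and without noDex replicates 1, 2 and 3 (adjusted p = 0.0831, 0.0618 and 0.0919), and with the DESeq2 Wald test (adjusted p = 0.0632).

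**Figure D2:**
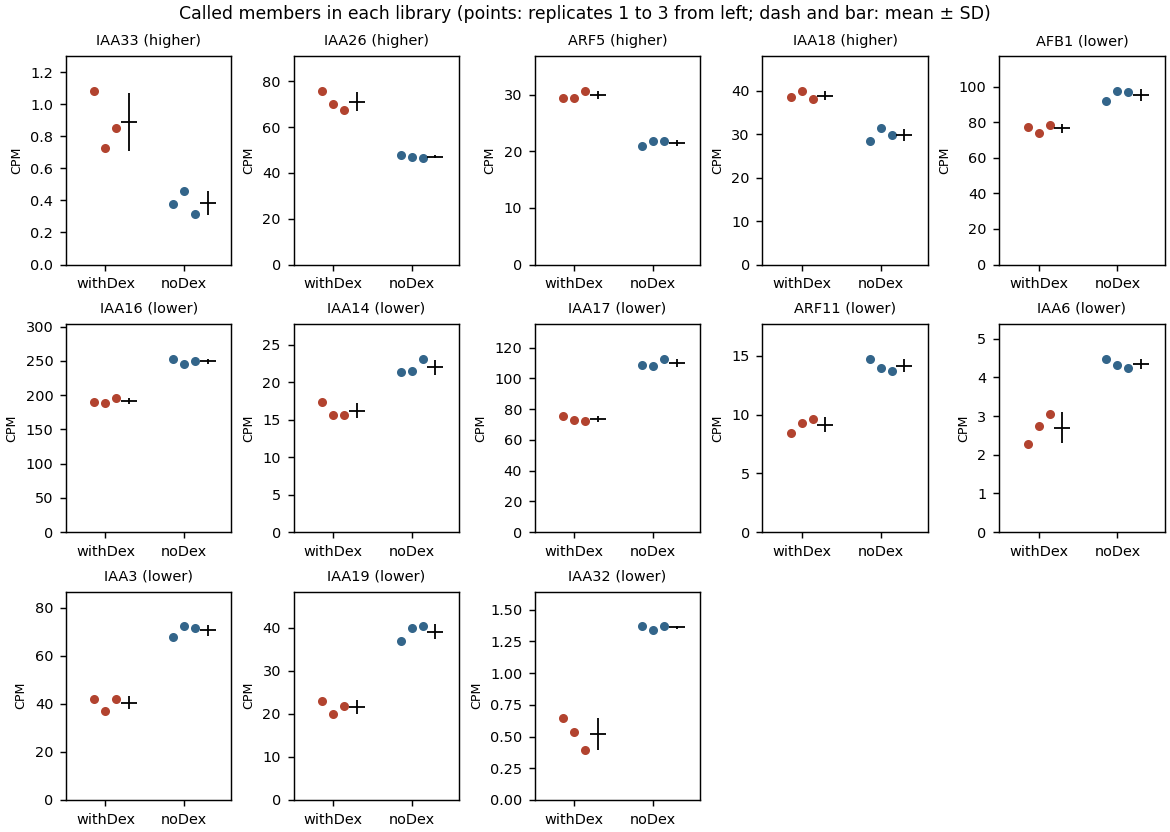
CPM of read pairs (vertical axis, from 0) of the 13 called members in each library, with withDex at the left and noDex at the right of each panel. Points are replicates, and the dash with a bar gives the mean ± SD of 3 libraries. No called member had overlapping groups, and IAA32 and IAA33 were the only ones with a mean below 2 CPM in both groups.

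The degron that auxin and the receptor grip is shown for the called canonical repressors because members that fell and members that rose carry the same core with different codons around it. In 23 of the 29 Aux/IAA genes the coding sequence holds 12 bases that encode Gly-Trp-Pro-Pro. The 39 bases around it, from TAIR10.1, are written 5′ to 3′ with those 12 bases in capitals. The members that fell come first, then those that rose, then IAA28, which was not called.
IAA3: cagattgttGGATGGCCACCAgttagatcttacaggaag
IAA6: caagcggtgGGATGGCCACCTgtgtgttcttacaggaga
IAA14: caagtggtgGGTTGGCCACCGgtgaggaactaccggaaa
IAA16: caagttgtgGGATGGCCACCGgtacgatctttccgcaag
IAA17: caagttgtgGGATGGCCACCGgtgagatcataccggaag
IAA19: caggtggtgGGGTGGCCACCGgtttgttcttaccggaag
IAA18: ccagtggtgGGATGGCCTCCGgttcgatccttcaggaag
IAA26: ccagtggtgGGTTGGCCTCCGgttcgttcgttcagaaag
IAA28: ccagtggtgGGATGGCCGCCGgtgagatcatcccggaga
IAA18, IAA26 and IAA28 were the only 3 of the 23 with ccagtggtg just before the core. IAA28, a repressor of lateral root formation, had 73.8 ± 2.62 CPM in withDex and 81.8 ± 2.35 CPM in noDex (SD, n = 3 each), with a log2 fold change of -0.15 (SE 0.05, adjusted p = 0.101, edgeR), and without withDex replicate 1 it was called lower (adjusted p = 0.0318). The 6 genes without the core were IAA20, IAA30, IAA31, IAA32, IAA33 and IAA34. Of the tested genes, 8 of 22 with the core were called (2 higher, 6 lower), and 2 of 5 without it (1 higher, 1 lower). These are 36.4% and 40%, against 14.4% of all genes tested. A Leu-x-Leu-x-Leu pattern, the form of the stretch that binds TOPLESS corepressors, was encoded in 28 of 29 coding sequences, and IAA33 was the exception. The pattern was searched over the whole protein, and whether a match binds corepressors was not tested.

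Auxin response elements were searched in the promoters, from 250 bases before to 50 bases after each gene's annotated start, as TGTCTC and as TGTCGG on both strands. At least 1 of them was present in 16 of 29 Aux/IAA promoters (55.2%), 3 of 15 ARF promoters (20%) and 1 of 6 TIR1/AFB promoters (16.7%), against 18.7% of the promoters of all 27443 protein-coding genes. Among tested Aux/IAA genes with an element, 4 of 14 were called lower (IAA6, IAA16, IAA19, IAA32) and none higher. Among those without one, 3 of 13 were called lower (IAA3, IAA14, IAA17) and 3 higher (IAA18, IAA26, IAA33). In either direction, 28.6% were called with an element and 46.2% without, against 14.4% of all genes tested (5.99% higher, 8.4% lower). The share called among all genes with an element was not computed, and a link between element and direction was not tested. The promoter of IAA19 (chr3:5263751-5264050, plus strand, TAIR10.1) is shown because it held the most copies of TGTCTC among the Aux/IAA genes, 3 in all, marked in capitals.
IAA19: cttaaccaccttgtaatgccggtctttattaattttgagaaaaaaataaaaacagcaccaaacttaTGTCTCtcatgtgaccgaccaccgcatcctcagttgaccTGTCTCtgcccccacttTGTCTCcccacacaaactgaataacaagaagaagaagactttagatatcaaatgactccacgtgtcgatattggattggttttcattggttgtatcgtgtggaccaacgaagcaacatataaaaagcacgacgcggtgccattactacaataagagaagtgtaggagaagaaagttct
A match in this window is a description of the letters only.

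The uncalled repressors included the most abundant members of the family. IAA9, a repressor whose tomato counterpart is known from leaf shape and fruit set, had 374, 364 and 360.4 CPM in withDex and 407, 421 and 407 CPM in noDex. The groups did not overlap, but the log2 fold change of -0.17 (SE 0.06) had an adjusted p of 0.0790 (edgeR). It was called lower with the DESeq2 Wald test (adjusted p = 0.0276) and without withDex replicate 1 (adjusted p = 0.0316). IAA7 (AXR2), whose stabilised form dwarfs the plant, had 271, 217 and 216 CPM in withDex and 254, 240.3 and 253 CPM in noDex, and withDex replicate 1 alone lay above the noDex libraries. Its log2 fold change was -0.09 (SE 0.09), and without withDex replicate 1 it was called lower (adjusted p = 0.0217, edgeR). IAA2, an auxin-induced member, had 187, 171 and 162 CPM in withDex and 164, 163 and 157 CPM in noDex, which overlapped, with a log2 fold change of 0.10 (SE 0.07).

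Of the uncalled Aux/IAA genes with a higher mean in withDex, IAA10 had the smallest adjusted p. It had 7.996, 7.26 and 6.77 CPM in withDex and 6.33, 5.41 and 6.00 CPM in noDex, a log2 fold change of 0.31 (SE 0.11, adjusted p = 0.0970, edgeR), with no overlap. The groups also failed to overlap, below noDex, for IAA5, IAA11, IAA12, IAA28 and IAA31, whose log2 fold changes ran from -0.74 for IAA5 to -0.15 for IAA12. Of these, IAA31 was called lower with the replicate number as a block (adjusted p = 0.0425, edgeR). Counting all tested Aux/IAA genes, 13 of 27 had every withDex library below every noDex library and 5 had every one above. Over all genes tested, 18.3% had withDex wholly below noDex and 18.1% wholly above, 36.3% in all. IAA12 (BDL), the repressor that partners ARF5 in the embryo, had 19.6 ± 1.30 CPM in withDex and 21.6 ± 0.732 CPM in noDex (SD, n = 3 each), with an adjusted p of 0.200 (edgeR). The other uncalled members, IAA1, IAA4, IAA8, IAA13, IAA20, IAA27, IAA29 and IAA30, had log2 fold changes between -0.35 for IAA29 and 0.26 for IAA30. IAA15, with 0, 2 and 0 pairs in withDex and 2, 0 and 1 pairs in noDex, and IAA34, with 0, 1 and 4 pairs in withDex and 9, 7 and 3 pairs in noDex, were too low to test. A library with 0 pairs allows a level of up to 3 pairs, or 0.102 to 0.115 CPM, for counting error only.

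Levels per length spanned the family widely. IAA9 had 225 ± 4.21 RPKM in withDex and 253 ± 4.81 RPKM in noDex, IAA7 had 187 ± 25.0 RPKM in withDex and 198 ± 6.09 RPKM in noDex, and IAA2 had 184 ± 13.4 RPKM in withDex and 172 ± 4.02 RPKM in noDex (SD, n = 3 each). IAA16 had 149.9 ± 3.28 RPKM in withDex and 195 ± 2.90 RPKM in noDex, so that it stood below IAA2 in withDex and above it in noDex. IAA7 and IAA16 did not differ beyond their spread in noDex, and IAA8 overlapped there with both IAA17 and IAA28, while IAA17 lay above IAA28 in every noDex library. IAA26 had 54.2 ± 3.24 RPKM in withDex, above IAA3 and IAA19 at 34.4 ± 2.41 and 22.2 ± 1.62 RPKM. In noDex IAA26 had 35.8 ± 0.480 RPKM, below IAA3 and IAA19 at 59.96 ± 1.93 and 40.3 ± 1.88 RPKM.

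**Figure D3:**
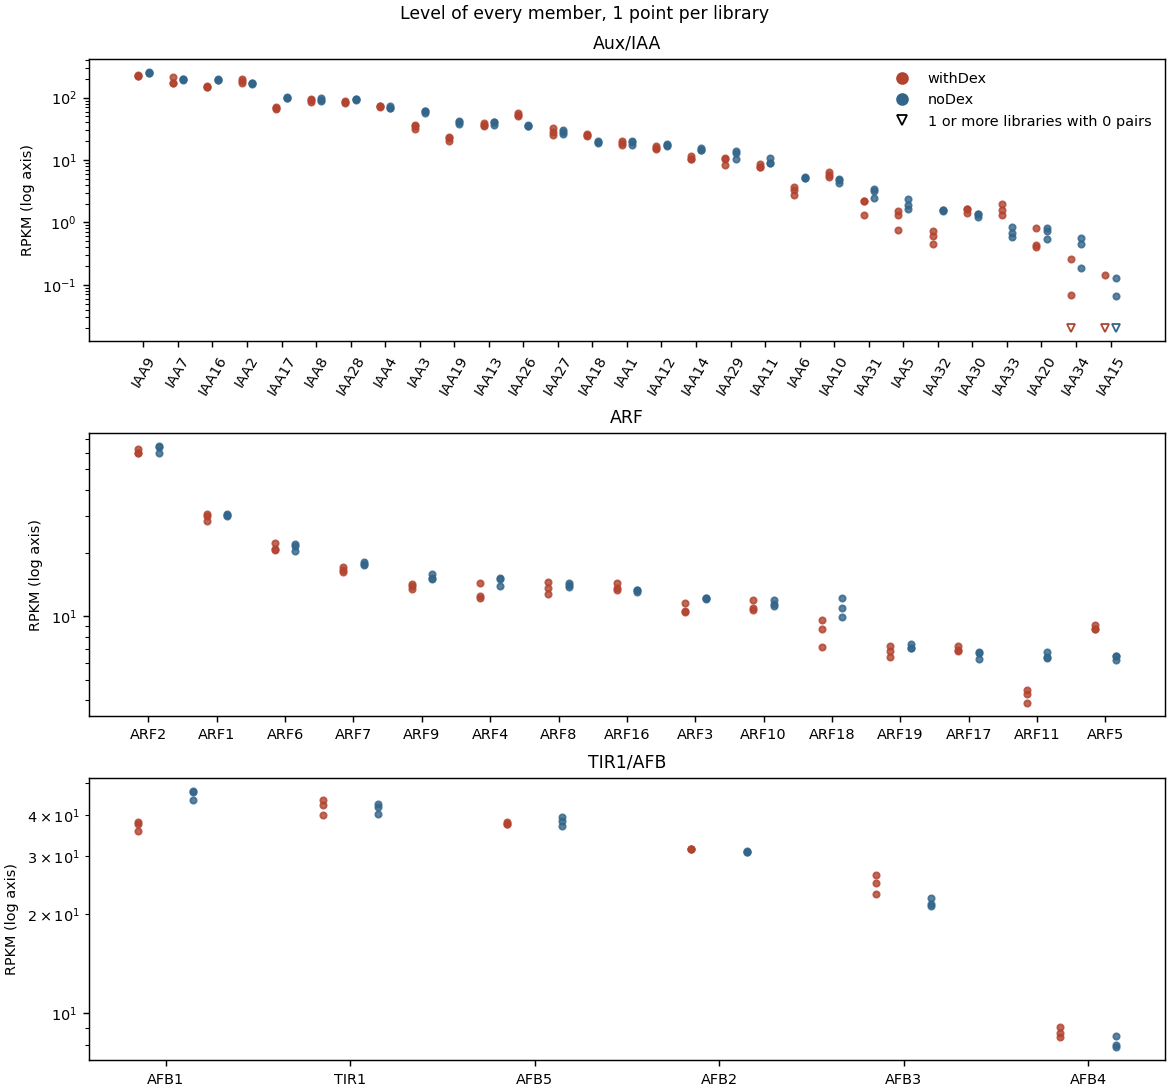
RPKM of every member in every library on a log axis, 1 panel per family, with members in order of their noDex mean and withDex to the left of noDex. Open triangles mark libraries with 0 pairs, for IAA34 and IAA15. Aux/IAA levels run from 253 RPKM for IAA9 in noDex to below 1 RPKM, a far wider range than in the ARF and TIR1/AFB families.

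ARF5 (MONOPTEROS, AT1G19850, chr1:6886669-6891404, plus strand), an activator ARF needed for the embryonic axis, vascular tissue and organ initiation at the shoot apex, was the ARF that rose. It had 29.4, 29.5 and 30.7 CPM in withDex and 20.9, 21.8 and 21.8 CPM in noDex. The groups did not overlap, and its log2 fold change was 0.48 (SE 0.06, adjusted p = 0.00159, edgeR). ARF11 (AT2G46530, chr2:19104632-19108486, plus strand), a member of the repressor class closely related to ARF18, was the ARF that fell, with 8.44, 9.32 and 9.66 CPM in withDex and 14.8, 13.9 and 13.7 CPM in noDex. The withDex libraries all lay below the noDex libraries, and ARF11 fell by 0.63 (SE 0.08, adjusted p = 0.00239, edgeR).

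ARF18 itself had 16.7, 22.6 and 20.5 CPM in withDex and 25.8, 28.6 and 23.3 CPM in noDex. These groups did not overlap, but the adjusted p was 0.0724 (edgeR) at a log2 fold change of -0.38 (SE 0.12). With the replicate number as a block its adjusted p was 0.0313, and with the DESeq2 Wald test 0.0419. ARF4, which acts with ARF3 in the abaxial side of leaves, had 45.0, 39.03 and 38.1 CPM in withDex and 46.9, 47.2 and 43.3 CPM in noDex, overlapping through withDex replicate 1, and was called lower without that library (adjusted p = 0.0140).

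The other activators showed log2 fold changes close to 0. ARF7 and ARF19, which act together in lateral root formation, were at -0.09 and -0.07, and ARF6 and ARF8, which act together in flower maturation, at -0.01 and -0.05. None of these 4 was called, so 1 of 5 activators rose and none fell, while 1 of 10 repressor-class ARFs fell and none rose. Over all genes tested, 5.99% were called higher and 8.4% lower, so these single calls do not set the classes apart. The median log2 fold change was -0.05 for the activators and -0.10 for the repressor class. The signs of ARF1, ARF2, ARF6, ARF8 and ARF19 turned positive with a correction for model length, by at most 0.08. ARF2, a repressor-class ARF of organ growth and senescence and the most abundant of the family, had 218, 211 and 210.2 CPM in withDex and 226, 225 and 210.1 CPM in noDex. ARF1, its relative, had 76.1, 70.8 and 74.5 CPM in withDex and 75.7, 75.6 and 74.7 CPM in noDex. ARF6 had 85.0, 79.8 and 78.7 CPM in withDex and 78.1, 84.2 and 82.4 CPM in noDex. All 3 overlapped between the groups.

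ARF10, ARF16 and ARF17 are targets of miR160, ARF6 and ARF8 of miR167, and ARF2, ARF3 and ARF4 of the trans-acting small RNAs from TAS3. None of these 8 was called by edgeR, DESeq2 or limma-voom over all 6 libraries. With 14.4% of all genes tested called by edgeR, so short a list without a call does not set the targets apart. At an unadjusted p under 0.05 edgeR would have called 1 of them, ARF3. The medians of their log2 fold changes were 0.06 for the miR160 targets, -0.03 for the miR167 targets and -0.16 for the TAS3 targets. Of 11 precursor genes of these small RNAs and miR393, 3 had enough pairs to be tested and none was called, which is too few to set against the 14.4%. TAS3 averaged 7.90 ± 0.816 CPM in withDex and 9.24 ± 0.892 CPM in noDex (SD, n = 3 each, log2 fold change -0.23, SE 0.11, adjusted p = 0.220, edgeR). Precursor transcripts are cut up during processing, so these counts do not measure the mature small RNAs. A list of 8 further ARF genes was too low to test, with summed levels of 0.143 to 0.191 CPM in withDex and 0.316 to 0.548 CPM in noDex and 4 of the 8 genes at 0 in every library.

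Summed over the family, Aux/IAA transcripts were at 1394, 1315 and 1318 RPKM in withDex and 1497, 1500.3 and 1484 RPKM in noDex. All withDex sums lay below all noDex sums, and their means were 1342 ± 45.0 RPKM in withDex and 1494 ± 8.46 RPKM in noDex (SD, n = 3 each), a ratio of 0.899. Of the mean difference of -151 RPKM, IAA16 made up -45.4, IAA17 -33.3, IAA9 -28.0, IAA3 -25.5 and IAA19 -18.0 RPKM, while IAA26 and IAA2 added 18.3 and 12.6 RPKM. The withDex replicate 1 sum was the nearest to noDex, and the median Aux/IAA gene was 0.08 higher on the log2 scale in that library than in the other withDex libraries, against 0.00 for all genes tested.

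The ARF sums were 240.3 ± 4.07 RPKM in withDex and 251 ± 4.59 RPKM in noDex, and the TIR1/AFB sums 182 ± 3.33 RPKM in withDex and 187 ± 2.05 RPKM in noDex (SD, n = 3 each). In both families the withDex sums lay below the noDex sums, with 185.1 RPKM in withDex replicate 3 and 185.2 RPKM in noDex replicate 1 at the nearest point for the receptors. Of the mean receptor difference of -4.91 RPKM, AFB1 made up -9.13 and AFB5 -0.585 RPKM. AFB3, TIR1, AFB4 and AFB2 were higher in withDex and added 3.01, 0.638, 0.609 and 0.555 RPKM. The ratio of Aux/IAA to ARF sums was 5.59 ± 0.110 in withDex and 5.95 ± 0.0757 in noDex (SD, n = 3 each), without overlap. Within the ARF family the ratio of activators to repressors was 0.388 ± 0.00721 in withDex and 0.363 ± 0.00902 in noDex, also without overlap. These sums and ratios are given as descriptions, without a test.

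**Figure D4:**
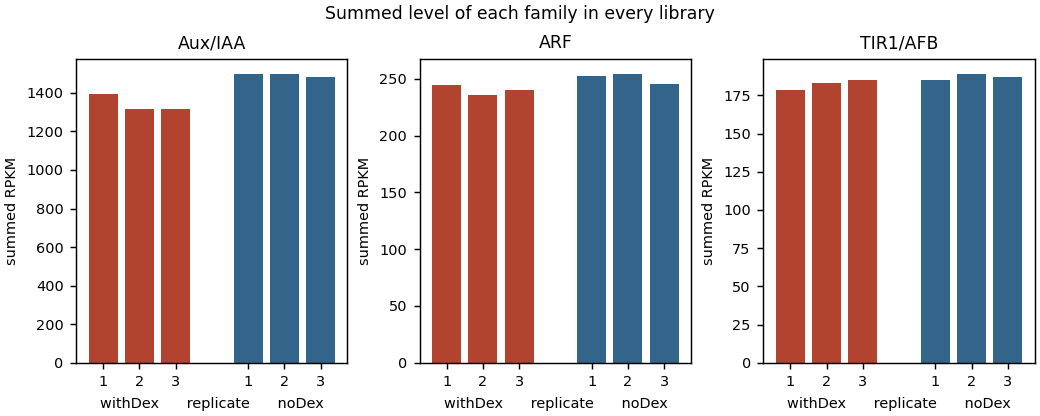
Summed RPKM of all members of each family (bars from 0), 1 bar per library, with withDex replicates at the left and noDex replicates at the right. The Aux/IAA sums are 1315 to 1394 RPKM in withDex and 1484 to 1500.3 RPKM in noDex, and the differences in the other 2 families are small beside their totals.

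The levels of near relatives were set against each other as ratios. Within 16 pairs of nearest relatives (51.1% to 81.8% of coding bases identical), the ratio of the pair's levels, first-named over second-named, did not overlap between the groups in 8, 4 higher and 4 lower in withDex. The share among ratios of other gene pairs was not computed, and single genes failed to overlap in 36.3% of all genes tested. With 3 against 3 libraries an exact permutation test cannot go below p = 0.1, so no pair can pass a threshold of 0.05. IAA3 over IAA4 was 0.475 ± 0.0357 in withDex and 0.861 ± 0.0613 in noDex (SD, n = 3 each), with IAA4 at 84.7 ± 2.52 CPM in withDex and 81.5 ± 3.42 CPM in noDex. IAA7 over IAA14 was 17.0 ± 1.15 in withDex and 13.3 ± 0.608 in noDex. TIR1 over AFB1 was 1.14 ± 0.0688 in withDex and 0.904 ± 0.0141 in noDex, so that AFB1 was the more abundant of these receptors in noDex and TIR1 in withDex. Both members fell in the pair IAA6 and IAA19, and both rose in the pair IAA18 and IAA26.

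**Figure D5:**
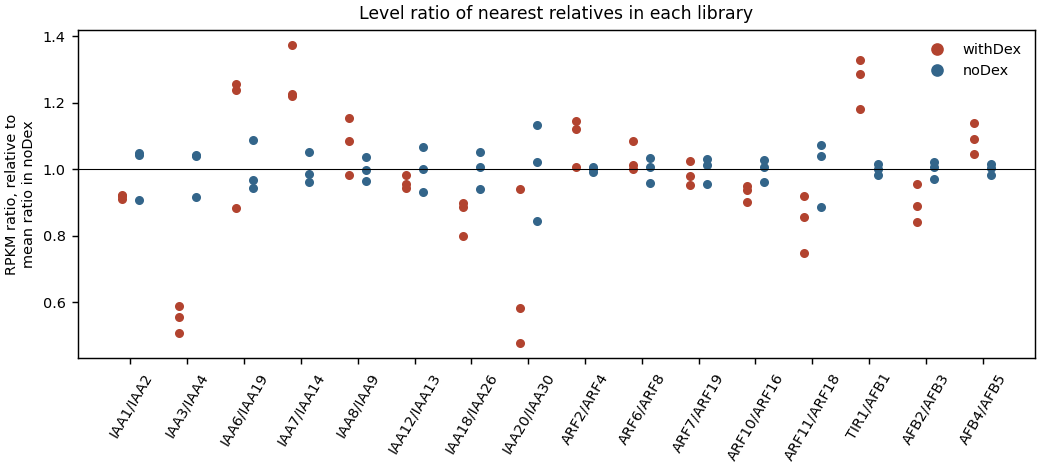
Ratio of the RPKM of nearest relatives in each library, divided by the mean ratio of the noDex libraries (vertical axis), for 16 pairs, with withDex to the left of noDex. IAA3 over IAA4 and TIR1 over AFB1 lie clear of their noDex values, in opposite directions.

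Other parts of the pathway were read from lists of genes. None of the 5 TOPLESS family corepressors was called by edgeR, DESeq2 or limma-voom over all 6 libraries, with log2 fold changes from -0.16 for TPL to 0.02 for TPR2. With 14.4% of all genes tested called by edgeR, the lack of a call does not set these 5 genes apart. At an unadjusted p under 0.05 edgeR would have called 1 of them, TPL, and without withDex replicate 1 it called 1 of the 5 lower at an adjusted p under 0.05. Of 9 genes of the SCF ligase and its neddylation cycle, RBX1, the RING subunit, was called higher, with 70.5, 72.5 and 71.3 CPM in withDex and 58.1, 60.9 and 62.2 CPM in noDex. Its log2 fold change was 0.24 (SE 0.05, adjusted p = 0.0176, edgeR). The list thus had 11.1% of its genes called, against 14.4% of all genes tested. No gene of that list was called when withDex replicate 2 or 3 or any noDex library was left out, and 3 were called higher without withDex replicate 1. The call of RBX1 was also lost with the length and GC offset, alone or with the replicate block.

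Of 14 other auxin response genes, 12 were tested, 3 rose and 2 fell. That is 41.7% of those tested, against 14.4% of all genes tested (5.99% higher, 8.4% lower). With the length and GC offset 4 were called lower, and against a minimum fold change of 1.5, 1 was called higher and 0 lower. GH3 enzymes conjugate auxin to amino acids and so inactivate it. GH3.1 had 5.42, 4.09 and 5.06 CPM in withDex and 2.16, 1.52 and 2.14 CPM in noDex, a log2 fold change of 1.32 (SE 0.18, adjusted p = 0.00299, edgeR). GH3.2 also rose, by 0.52 (SE 0.10, adjusted p = 0.0114), while GH3.3 fell by 0.56 (SE 0.10, adjusted p = 0.00903) and GH3.5 fell by 0.62 (SE 0.08, adjusted p = 0.00281). ARGOS, an auxin-induced gene that promotes organ growth, had 46.8, 41.4 and 42.8 CPM in withDex and 23.6, 19.3 and 21.3 CPM in noDex, a log2 fold change of 1.03 (SE 0.09, adjusted p = 0.000440, edgeR). For these 5 genes the groups did not overlap, and genes of the GH3 family were called in both directions, as Aux/IAA genes were.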

How the data were processed

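RNA was sequenced in 6 libraries of seedlings with 35S::CUC2-GR, 3 withDex and 3 noDex, from polyA-selected RNA with a TruSeq kit that does not keep strand, per the labels' protocols. The authors aligned the reads to TAIR10 with Bowtie2, per the submitters' processing notes (version not given in the sources used here). Raw counts of properly paired read pairs per gene model were deposited, per the file headers, beside counts of single reads and the model length in bases (a value of another unit), and reads whose best hits scored alike were removed, which was 1.53% to 1.66% of the pairs. Reads of overlapping genes on opposite strands were not separated by strand. Intervals and limits cover counting error only.

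From here on values were computed from the pair counts. edgeR 4.0.16 in R 4.3.3 dropped low models with filterByExpr (minimum count 10 and minimum total 15), applied TMM scaling and compared withDex against noDex in a quasi-likelihood test (two-sided). Genes were called at a Benjamini-Hochberg adjusted p under 0.05 over all 21344 genes tested. CPM are TMM-scaled, and the SE was obtained from the size of the log2 fold change and the square root of its F statistic, as their quotient. Alternatives used DESeq2 1.42.0, limma 3.58.1, other filters, single reads, offsets for model length (and GC content), a block for the replicate number, a test against a 1.5-fold change, and leaving out each library. On simulated counts with 50 genes per fold size, the test called 4 genes changed 1.25-fold, 32 changed 1.5-fold, 44 changed 2-fold and 48 changed 4-fold, with 11 false calls among 21226 genes. Far fewer genes were changed there than the 3071 called in the data. The adjustment is stricter when fewer genes change, so these counts do not give the recovery in the data.

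The members and lists were chosen with earlier results of these data known. Values in every library are given for members with an adjusted p under 0.05, for the 3 members of each family with the highest mean RPKM, and for up to 5 members with an adjusted p between 0.05 and 0.10, and of the other lists up to 6 called genes are named. ARF4, AFB2, AFB4, IAA12, IAA28, TAS3 and the genes given by fold change alone were named after their values were seen. Both groups share replicate numbers. The correlation over genes of the deviations from each group's mean was 0.171, 0.119 and 0.125 for same-numbered libraries and no more than 0.0177 for the rest. Deviations within a group cancel out, so positive values for same-numbered libraries force lower ones for the rest. The labels do not say what the numbers mark, so these values cannot settle whether the libraries are paired. The block was therefore run only as an alternative. Sequences are from the RefSeq genome and annotation of TAIR10.1. All 50 members had a transcript of the same name there. Of the 33602 models, 32827 had a transcript of the same locus, and 12095 had the length of the transcript used.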

Additional observations from a re-analysis of the deposited data

How the results depend on the processing

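Over 18 alternatives, of which the offsets for model length and GC content were added after the data were seen, the 13 called members kept their direction in all of 232 values and their call in 209. Of the 23 lost calls, 13 came from testing against a fold change of 1.5, where 0 members of any family were called (adjusted p = 0.0511 for IAA19, 0.0838 for IAA3, 0.110 for IAA32, 0.382 for IAA33), and the others were IAA6 without a noDex library and IAA33 in 7 settings (adjusted p = 0.0503 to 0.0919). Leaving out each library in turn gave 2 to 3 Aux/IAA genes higher and 6 to 11 lower, 1 to 2 ARF genes lower, and 0 to 1 receptors higher. The 11 came without withDex replicate 1, when IAA7, IAA9, IAA28 and IAA29 were added and 5065 genes in all were called, while leaving out each other library gave 1304 to 2236. With the replicate block, 8 Aux/IAA genes were lower (IAA31 added, adjusted p = 0.0425) and 2 ARF genes (ARF18 added). The DESeq2 Wald test also gave 2 ARF genes lower. AFB3 was called, giving 1 receptor higher, with the replicate block and length offset (adjusted p = 0.0363), the length and GC offset, and the replicate block with the length and GC offset (adjusted p = 0.0329). The block changed no other member's call, apart from IAA33, which lost it with the block and either offset. Uncalled members turned sign in 35 values, all small. With the length offset the log2 fold changes were 0.024 for AFB5, 0.018 for ARF1, 0.013 for ARF19, 0.031 for ARF2, 0.076 for ARF6 and 0.010 for ARF8. With the replicate block and length offset they were 0.024 for AFB5, 0.017 for ARF1, 0.012 for ARF19, 0.032 for ARF2, 0.078 for ARF6, 0.0097 for ARF8 and -0.0041 for IAA27. With the length and GC offset they were 0.0090 for AFB5, 0.0070 for ARF1, 0.011 for ARF19, 0.023 for ARF2, 0.068 for ARF6 and 0.00054 for ARF8, and with the block added 0.0092 for AFB5, 0.0065 for ARF1, 0.010 for ARF19, 0.023 for ARF2 and 0.069 for ARF6. Leaving out each library in turn gave values on both sides of 0 for IAA1 (-0.081 to 0.024), IAA27 (-0.085 to 0.099), TIR1 (-0.012 to 0.064), ARF1 (-0.051 to 0.00029) and ARF6 (-0.040 to 0.016). Calls in all genes were 41.6% higher, and 61.7% (124 higher, 77 lower) with the minimum fold change. The cause of these changes was not tested. Depth limits IAA15, IAA34, IAA20, IAA33, IAA30 and IAA32, which had at most 40 pairs in any library.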
